A study of Mus musculus with 4 samples.

Results

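The 2 control arrays of this mouse study describe normal back skin on postnatal day 10, when the first hair coat is growing. The series holds 4 arrays, of which the other two come from mice that lost Adam17 in keratinocytes and are not used here. The control animals carried loxP-flanked Adam17 on both alleles (Adam17 flox/flox) without the Krt14-Cre transgene. They were of mixed 129Sv and C57BL/6 background and came 1 each from litters 1 and 2, so that animal and litter cannot be told apart. RNA of each skin sample, 500 ng, was labelled with Cy3 and hybridised to a 1-colour Agilent whole mouse genome array. Members were the gene probes marked by the scanner software as well above background on both control arrays. They numbered 21852 of 41153 probes with a value (53.1%), and stood for 15333 of 28027 genes (54.7%). A further 720 genes had such a probe on 1 array only, and 11974 had none.

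Growing back skin holds a layered epidermis, hair follicles, dermis, fat and a sheet of skeletal muscle. In the epidermis, basal keratinocytes divide and their daughters change keratins as they move outward to form the cornified layer. In the growing follicle, matrix cells divide around the dermal papilla and give rise to the inner root sheath, whose filaments hold trichohyalin, and to the hair shaft, where hair keratins are embedded in keratin-associated proteins. ADAM17 is a membrane-bound protease that releases ligands of the EGF receptor from the cell surface.

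A level is the log2 signal minus the log2 of the array's 75th percentile, so that 0 marks a signal of 751 on the array of replicate 1 and of 784 on that of replicate 2, and each step of 1 marks a 2-fold signal. Percentiles of level are among the 15333 genes above background. Of the 43379 gene spots, 56.2% were well above background in replicate 1 and 54.7% in replicate 2, and 0 were saturated on either array. Per the file headers, spiked-in control RNAs gave a slope of 1.03 on both arrays. Levels of the 15333 genes ran from -4.65 to 9.44 with a median of 0.25. With 2 arrays in a single group no test was made, and the difference between the animals serves as the error of each level. In a bulk sample, fewer cells of a type and less RNA per cell cannot be told apart.

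Signals also depend on the probe, which limits any order between genes. Of the 5018 genes with several probes above background, the probes spanned a median of 2.27 on the log2 scale. In 76.7% of these genes the highest and lowest probes lay at least 2-fold apart, and in 21.6% at least 16-fold. In 3451 genes some probes passed and others did not. The upper quartile of the span was 3.73 and its 90th percentile 5.30. Each gene is shown by its highest probe above background, so an order between 2 genes may come from the probes. This holds most for genes closer than the median span, but wider gaps are not safe from it.

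The plot of probe levels shows how far this reached among the genes at the top. Ptprz1, a receptor-type tyrosine phosphatase, had the highest level of all genes, 9.51 in replicate 1 and 9.38 in replicate 2, from a probe at chr6:22951569-22951628 (mm9). Its other probes lay at a mean of -1.92, above background on both arrays, at -4.41, above on 1 array, and at -7.07, above on neither. Its first place therefore rests on 1 of 4 probes. Rpl13, Myh8, Rps12 and Rps13 showed spans of 11.73, 11.73, 11.35 and 11.11 between their highest and lowest probes above background. Tchh, which encodes trichohyalin, spanned 6.51, between 9.06 and 2.55. By contrast, the probes of Krtap19-1 lay within 0.02 of each other and those of Adam17 within 0.04.

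**Figure D1:**
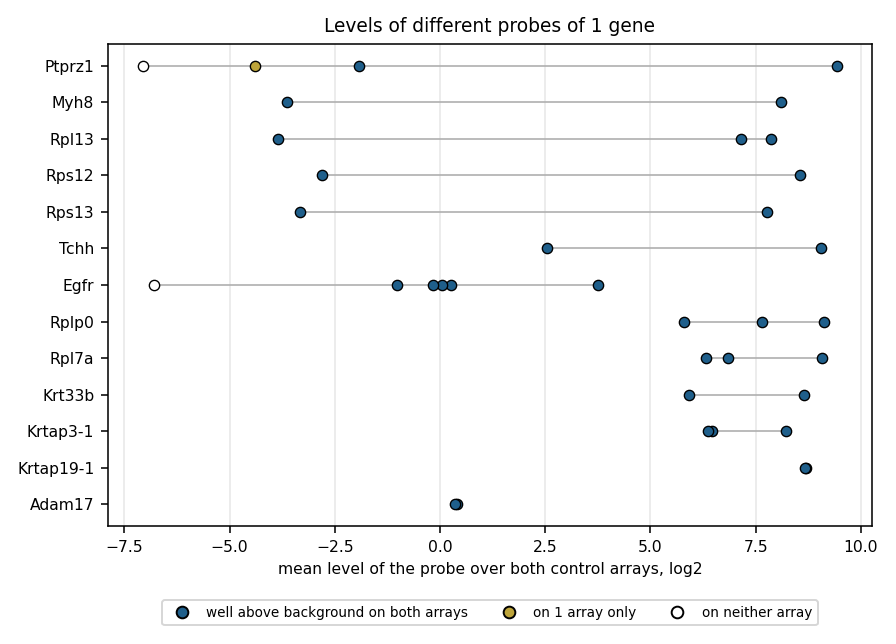
Mean level over both control arrays (log2, x axis) of each probe of 13 genes (y axis), with filled points for probes well above background on both arrays. The probes of Ptprz1 run from -7.07 to 9.44, while those of Adam17 and Krtap19-1 nearly coincide.

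Most of the highest levels belonged to ribosomal proteins, keratins and keratin-associated proteins. Of the 100 highest genes, 38 encoded ribosomal proteins or elongation factors, 13 keratins, 10 keratin-associated proteins and 2 collagens. A further 13 had no name but a clone's or an accession, and 24 were other named genes. Ribosomal proteins and elongation factors made up 0.757% of all genes above background, keratins 0.241% and keratin-associated proteins 0.274%. The 100 highest genes held 26.8% of the summed signal in replicate 1 and 26.1% in replicate 2, and the top 100 of each array taken alone had 93 genes in common. The lower boundary was narrow, with the last of the 100 at 7.38 and the next gene at 7.37.

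Among the 30 highest named genes, the follicle was represented by keratins of both its compartments. Krt71, a type II keratin of the inner root sheath (probe at chr15:101564426-101564485, mm9), stood at rank 2 with 9.28 and 9.41 in replicates 1 and 2. Its type I partner Krt27 stood at 8.92 and 8.95, and Tchh at 9.05 and 9.07. The differences between the animals, at most 0.13 for these genes, were small against the distance of about 9 log2 steps from the 75th percentile. Of the hair shaft keratins, Krt33a lay at 8.82 and 8.68 and Krt33b at 8.75 and 8.57. Krtap16-3, a keratin-associated protein that cross-links shaft keratins, lay at 9.15 and 9.07.

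Other genes of this group included Krt17, a keratin of the outer root sheath and of stressed epidermis, at 8.49 and 8.54. Lor encodes loricrin, the main protein of the cornified envelope, and lay at 8.50 and 8.36. Apoe, which encodes the lipid carrier apolipoprotein E, lay at 8.55 and 8.52. Rplp0, often used as a reference gene, was the highest ribosomal gene at 9.19 and 9.05, but its 3 probes ran from 9.12 to 5.80. Ribosomal protein genes have many near-identical copies, so their signals cannot be assigned to 1 gene with certainty. The widest gap between animals among these 30 was that of Rn18s, the 18S ribosomal RNA, at 8.67 and 8.18.

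**Figure D2:**
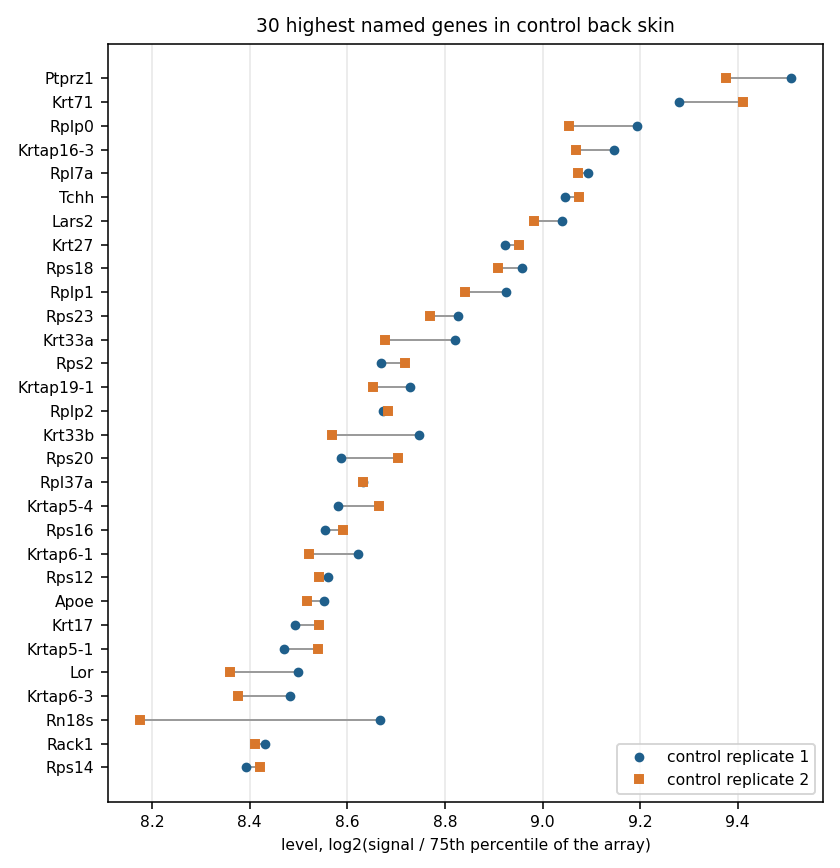
Levels (log2 of signal over the array's 75th percentile, x axis) of the 30 highest named genes in control replicate 1 (circles) and control replicate 2 (squares), joined by a line. The genes lie between 8.18 and 9.51, and the line is longest for Rn18s.

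Chromosome 11, which carries the type I keratin cluster and several families of keratin-associated proteins, held 20 of the 100 highest genes, against 8.52% of all genes above background. Chromosome 16, with other keratin-associated protein families, held 8 of the 100 against 3.29%, and chromosome 3, with the cornified envelope genes, 8 against 4.96%. These counts are of whole chromosomes and not of the clusters. Those of chromosome 11 included Rack1, Myh8, Grn and Col1a1, and those of chromosome 3 Rps27, Rpl34 and Fabp4, which belong to none of these families.

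Inner root sheath and companion layer genes were all above background, 13 of 13 measured, beside 54.7% of all genes. Their median percentile was 98.3, and 6 stood among the 100 highest. Krt25 lay at 7.97 and 8.23, Krt28 at 8.36 and 8.21 and Krt75, the companion layer keratin, at 8.19 and 8.25. The lowest was Dlx3, a homeobox gene of the differentiating follicle, at 1.69 and 1.71. Thus the structural genes of the sheath lay near the top, and the transcription factors of the same list lay lower, with Gata3 at 4.64 and 4.57.

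All 10 measured hair shaft keratins were above background, with a median percentile of 99.4 and 8 of them in the highest 10% of levels. Krt34 lay at 8.45 and 8.32, and the lowest, Krt82, a keratin of the shaft cuticle, at 2.40 and 2.45. Differences between the animals ran from -0.18 to 0.11 (replicate 2 minus replicate 1). Of the other shaft genes, 12 of 12 were above background. Crym, which encodes the thyroid hormone-binding protein crystallin mu, lay at 7.36 on both arrays, and S100a3, a calcium-binding protein of the cuticle, at 7.27 and 7.25. Dsg4, the desmosomal cadherin of the hair shaft, lay lowest at -1.64 and -1.54.

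Keratin-associated proteins were above background in 42 of 44 measured genes, with a median percentile of 98.3 and 4.77% and 4.67% of the summed signal in replicates 1 and 2. The highest were Krtap16-3, Krtap19-1 at 8.73 and 8.65, and Krtap5-4 at 8.58 and 8.67. The lowest was Krtap5-3 at 0.74 and 0.92, so that family 5 spanned nearly the range of the list. Family 6 had a median level of 7.76 over 4 genes and family 19 one of 6.86 over 6 genes. Krtap13 and Krtap20-2 missed the background flag on both arrays. Closely related members of a family may share signal on a probe, which was not tested.

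Promoters are shown for some of the genes that carry a motif frequent among them, which the levels did not use. The motif TATAAA was searched in RefSeq promoters (GRCm38.p6), with the whole motif between -40 and -20 from the transcription start, and on the other strand as TTTATA. In the lines that follow, each window runs from -45 to -1 and the capitals mark the motif. All windows shown come from genes that hold it, namely a pair of sheath keratins, 3 keratin-associated proteins, loricrin and Krt10.
Krt71, chr15:101743098-101743142, minus strand: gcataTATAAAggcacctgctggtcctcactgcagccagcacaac
Krt25, chr11:99322952-99322996, minus strand: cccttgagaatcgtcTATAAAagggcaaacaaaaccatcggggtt
Krtap16-3, chr16:88962874-88962918, minus strand: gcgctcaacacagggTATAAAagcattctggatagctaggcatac
Krtap6-3, chr16:89083979-89084023, plus strand: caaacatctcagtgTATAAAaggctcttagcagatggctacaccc
Krtap4-6, chr11:99665961-99666005, minus strand: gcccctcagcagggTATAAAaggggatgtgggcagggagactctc
Lor, chr3:92083143-92083187, minus strand: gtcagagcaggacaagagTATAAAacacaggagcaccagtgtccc
Krt10, chr11:99389365-99389409, minus strand: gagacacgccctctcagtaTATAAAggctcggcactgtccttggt

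Of the 23 keratins and keratin-associated proteins among the 100 highest genes, 19 had a promoter in the table, and 12 of these held the motif (63.2%, 95% Wilson interval 41.0% to 80.8%). The share over all 27025 genes with a promoter of the same length was 2.31%, whether or not they were above background here. It was 60.5% in 38 keratin-associated proteins, 66.7% in 9 small proline-rich proteins, 33.3% in 12 sheath genes, 23.3% in 30 granular layer genes and 14.8% in 27 skeletal muscle genes. On the other strand 0 genes of these groups held it, against 0.673% of all genes with a promoter. Krt27 and Krt5 were among the highest genes without this motif in the window. For all 100 highest genes the count was void, since 66.0% had a promoter in the table and at least 80% were required. The same held for all genes above background (70.3%), ribosomal proteins (70.7%) and hair shaft keratins (60.0%). The intervals cover counting error only, and family members with related promoters are not independent.

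**Figure D3:**
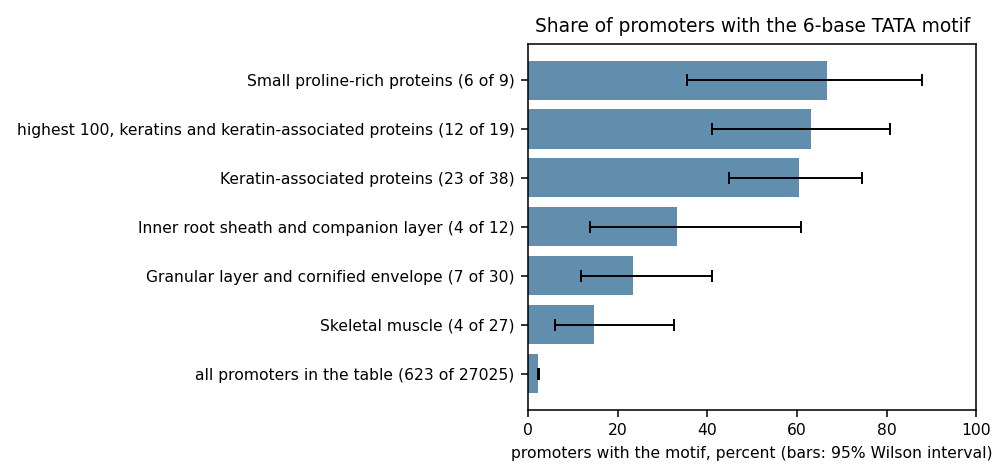
Percent of promoters with TATAAA between -40 and -20 (x axis) for each group of genes with enough promoters (y axis), with 95% Wilson intervals and the counts in brackets. Small proline-rich proteins and keratin-associated proteins stand at 66.7% and 60.5%, all promoters, counted by gene, at 2.31%.

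The epidermal layers were covered throughout, while 54.7% of all genes were above background. Of the basal keratinocyte genes 17 of 17 were above background, of the spinous genes 16 of 16 and of the granular and cornified envelope genes 33 of 33. Their median percentiles were 64.5, 93.7 and 84.6. Krt5, the type II keratin of basal cells, lay at 8.37 and 8.30, and its partner Krt14 at 7.31 and 7.40. Krt10, the type I keratin of spinous cells, lay at 7.44 and 7.56. Krt1, its usual partner, was shown at 2.43 and 2.55 and Krt2, a keratin of the upper spinous layer, at -3.78 and -4.07, the lowest of the list. Whether these low values reflect the transcripts or their probes was not tested.

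Of 31 junction genes, 30 were above background, beside 54.7% of all genes, with a median percentile of 77.2 and 8 in the highest 10% of levels. The highest of them was Pkp1, which encodes the desmosomal plaque protein plakophilin, at 6.72 and 6.77. Perp, a desmosome-associated membrane protein of the spinous list, lay at 7.57 and 7.73. In the cornified layer, Cst6, a cysteine protease inhibitor, lay at 8.12 and 7.97, although its other probe, at a mean of -6.60, passed on neither array. Asprv1, the protease that processes profilaggrin, lay at 6.63 and 6.60. Lce3f, a late cornified envelope gene, was lowest at -2.08 and -2.85. Of the small proline-rich proteins, which are cross-linked into the cornified envelope, 11 of 13 were above background. Sprr1a lay at 7.28 and 7.33, while Sprr2d and Sprr3 missed the background flag on both arrays.

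Genes that regulate the follicle lay in the middle of the range. All 26 measured hair matrix and follicle regulators were above background, beside 54.7% of all genes, with a median percentile of 61.4. Msx2, a homeobox gene of the matrix, lay at 4.26 and 3.92, and Vdr, the vitamin D receptor, at 3.90 and 4.19. Eda, the ligand ectodysplasin, was lowest at -2.90 and -2.84. Of the 34 cell cycle genes 34 were above background, with a median percentile of 79.6. Mcm6, a subunit of the replicative helicase, lay at 4.50 and 5.09 and Mki67, a marker of dividing cells, at 4.38 and 4.58. Stem cell genes were above background in 20 of 20, from Krt15 at 6.62 and 6.83 to Lgr6 at -3.98 and -3.70.

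Of 14 listed genes linked to the end of growth and the resting phase, 11 were above background (78.6%), beside 54.7% of all genes. The median percentile of the 11 was 45.0. Foxc1, a forkhead factor, lay at 4.16 and 4.08. Fgf5, the growth factor that ends hair growth, lay at 2.04 and 2.13. Dkk1, a secreted Wnt inhibitor, missed the background flag on both arrays. Dermal papilla and sheath genes were above background in 20 of 23 (87.0%), with a median percentile of 39.8. Sox2 and Rspo3 missed the background flag on both arrays.

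**Figure D4:**
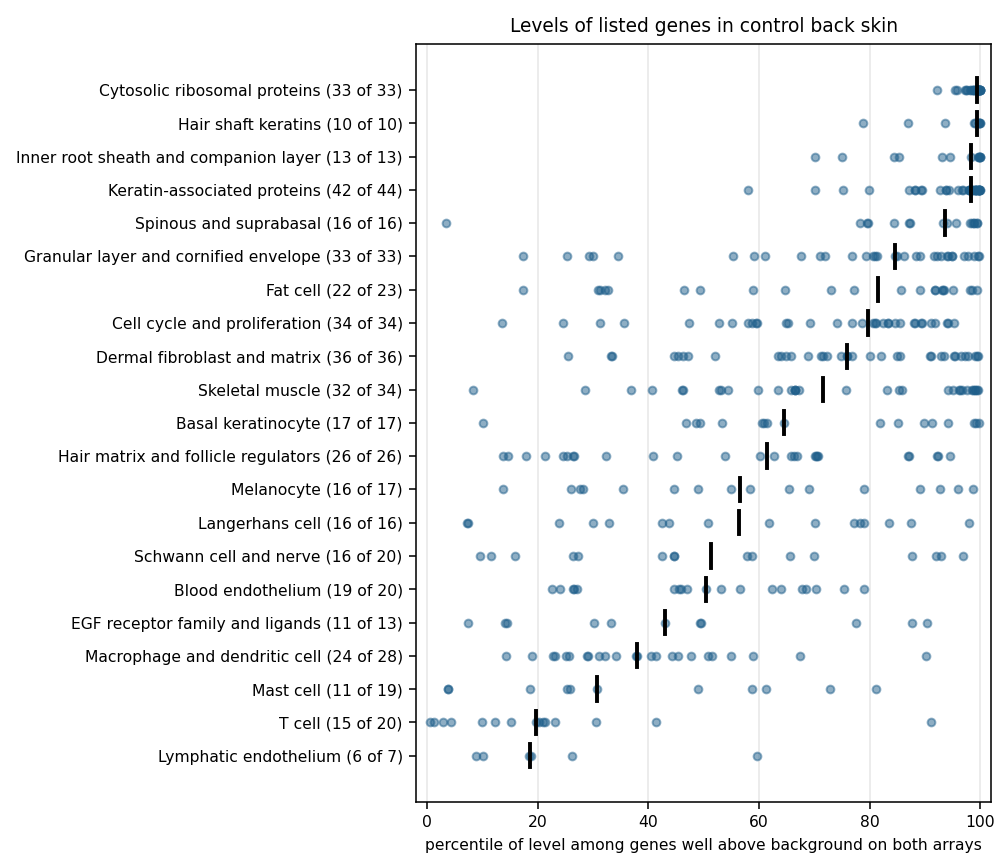
Percentile of level (x axis) of each listed gene well above background on both arrays, for 21 gene lists (y axis), with the number above background of those measured in brackets and a black bar at the list's median. Ribosomal and hair genes crowd near 100, while lymphatic endothelium has a median of 18.5.

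Dermal, fat and muscle genes covered a wide range, with median percentiles of 75.9, 81.5 and 71.5. Their lowest members above background were Fmod, a collagen-binding proteoglycan, at percentile 25.4, Aqp7, a glycerol channel, at 17.3 and Myod1, a muscle transcription factor, at 8.32. Dermal fibroblast and matrix genes were above background in 36 of 36, beside 54.7% of all genes. Col1a2 lay at 8.04 and 7.36, Col1a1 at 7.89 and 7.37 and Col3a1 at 7.44 and 6.74. These collagens, the main fibres of the dermis, were all lower in replicate 2. The other probe of Col1a2, at a mean of -6.70, was above background on neither array. Fat cell genes were above background in 22 of 23. Fabp4, a fatty acid carrier, lay at 7.62 and 7.29, and Ucp1, the uncoupling protein of brown fat, missed the background flag on both arrays. Skeletal muscle genes were above background in 32 of 34. Myh8, the perinatal myosin heavy chain, lay at 8.21 and 7.98 and Tnnc2, fast troponin C, at 7.80 and 7.57, although another Myh8 probe lay at -3.63. Muscle transcripts were thus among the RNA measured, and the muscle list held 1.19% and 0.935% of the summed signal in replicates 1 and 2.

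Rarer cell types lay lower. Melanocyte genes were above background in 16 of 17, with Dct, an enzyme of melanin synthesis, at 6.45 and 6.75 and Mlana, a melanosome protein, at a mean of 5.03. Tyr, which encodes tyrosinase, missed the background flag on both arrays. Langerhans cell genes were above background in 16 of 16, macrophage and dendritic cell genes in 24 of 28 and mast cell genes in 11 of 19 (57.9%), the last close to the 54.7% of all genes. The Langerhans list shares Csf1r with the macrophage list and Tgfb1 with the end-of-growth list, so its count is not particular to that cell type. Lyz2, the lysozyme of myeloid cells, lay at 4.05 and 3.39, and Cma1, mast cell chymase, at 2.97 and 2.29. T cell genes were above background in 15 of 20 with a median percentile of 19.7. The highest, Thy1 at 4.11 and 3.66, also stands in the fibroblast list.

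Neutrophil genes were above background in 3 of 13 (23.1%) and B cell and plasma cell genes in 2 of 11 (18.2%), beside 54.7% of all genes. Those of the neutrophil list were S100a9 at 0.56 and 1.05, S100a8 at 0.72 and 0.53 and Camp at -4.47 and -3.87. Those of the B cell list were Sdc1 at 5.42 and 5.38, percentile 96.8, and Ighm at 0.18 and -0.01. Elane, Ltf and Ms4a1 missed the background flag on both arrays. Red cell genes were above background in 13 of 19 (68.4%), with the adult globin Hbb-bt at 7.12 and 6.76. The embryonic globins Hbb-bh1 and Hba-x missed the background flag on both arrays.

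Lists of genes from tissues not expected in skin show how often the background flag passed there. Liver genes passed in 4 of 14, genes of pancreas, gut and kidney in 2 of 17 and genes of lung, lens and retina in 3 of 11. Alb, Ttr and Ins1 missed the background flag on both arrays. Olfactory and vomeronasal receptor genes passed in 64 of 1049 (6.10%), against 54.7% of all genes. Their median percentile was 11.4, but Olfr1134 lay at a mean of 4.15. Among cartilage and bone genes 6 of 12 passed, with Col2a1, the collagen of cartilage, at 4.01 and 3.22. Of the Y-linked genes Eif2s3y, Ddx3y, Kdm5d and Uty were above background on both arrays, and Xist was on neither. The labels used here give no sex.

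By the highest probe of each gene, 3 of the 4 receptors of the EGF family lay above every measured ligand. Egfr lay at 3.75 and 3.77, Erbb3 at 3.37 and 3.38 and Erbb2 at 2.20 and 2.41, while Erbb4 was above background on 1 array only. Of the ligands that ADAM17 can release, Hbegf lay at 0.11 and 0.31, Tgfa at -0.36 and -0.13 and Areg at -0.83 and -1.16. Epgn lay at 0.06 and 0.38 and Btc at -1.43 and -1.08. Lower still were Egf at -2.83 and -2.76, Nrg4 at -2.57 and -3.11 and Nrg1 at -3.67 and -3.33, and Ereg passed on 1 array only. The order depends on the probe and on the number of probes. Egfr has 6 and Erbb3 has 5, against 1 each for Epgn, Hbegf and Areg, 2 each for Tgfa and Btc and 5 for Nrg1. Erbb2 lay closer to Epgn than the median span of a gene's probes, so no order is read for it. Egfr and Erbb3 lay closer to Epgn than the upper quartile of that span, 3.73, so their place is not certain either. Of the 5 Erbb3 probes, 2 were above background on both arrays. The other Egfr probes above background had means between -1.01 and 0.27, against 0.22 for Epgn, the highest ligand. The median of the 5 Egfr probes above background was 0.04, below Epgn and below Hbegf at 0.21.

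Adam17 itself (probe at chr12:21330545-21330604, mm9) lay at 0.44 and 0.37, at percentile 52.1, and its second probe at 0.42 and 0.30. The related proteases Adam9 and Adam15 lay at 2.37 and 2.46 and at 1.94 and 1.96, closer to Adam17 than the median span of a gene's probes, so no order is read. Adam8 lay at -0.67 and -0.61, Adam19 at -2.43 and -2.38, Adam33 at -3.17 and -3.38 and Adam28 at -3.97 and -4.23. Adam10, the closest relative of Adam17, has 1 probe, which passed on 1 array only, and Adam12 passed on neither. Whether these low values reflect the transcripts or their probes was not tested. Rhbdf2 and Rhbdf1, which encode the iRhom proteins that carry ADAM17 to the cell surface, lay at 1.33 and 1.58 and at 1.17 and 1.35. The inhibitors Timp2, Timp3 and Timp1 lay at 5.02 and 4.56, at 4.08 and 4.27 and at -0.60 and -0.76. The secreted proteases Adamts5 and Adamts1 lay at 1.32 and 1.24 and at 1.08 and 0.82.

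The animals were close over most genes. Across the 15333 genes their levels correlated at 0.994, which is a correlation across genes and not across independent samples. The median absolute difference was 0.13 and the SD of the difference 0.28 on the log2 scale. It was 0.22 at the median in the lowest 10% of levels and 0.09 in the highest 10%. At least 2-fold apart were 121 genes (0.789%), 48 higher (0.313%) and 73 lower (0.476%) in replicate 2.

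The largest differences were those of the following genes. Sprr2f, a small proline-rich protein, lay at 1.06 in replicate 1 and -3.43 in replicate 2. Serpina3b, a serine protease inhibitor, lay at 2.27 and -1.76. Ptprv, a receptor-type phosphatase, lay at 0.99 and -2.51. All 3 were higher in replicate 1, as were Lingo3, Wdfy1, Serpina9, Ccl8, Adh6a, Aadacl2fm1 and Retnla, by 2.74 to 2.01. In the other direction, Hamp2, of the hepcidin family, lay at -4.04 and -0.47, Rab7b, a small GTPase of late endosomes, at 1.35 and 4.47 and Fam177a at -1.91 and 0.95. Olfr414, Sdr16c5, Plcxd2, Ntn4, Tmc5, Hsd3b6 and Mgarp were higher in replicate 2 by 1.86 to 1.56.

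Differences of smaller size ran the same way within several cell type lists. Of the 36 fibroblast genes 33 were lower in replicate 2, with a median difference of -0.42, while 55.2% of all genes were higher there. Macrophage and dendritic cell genes were lower in 23 of 24 (median -0.48), skeletal muscle genes in 30 of 32 (-0.29) and lymphatic endothelium genes in 5 of 6 (-0.63). Medians were -0.41 for mast cells (-0.22 with normexp background correction and -0.62 with no filter on dim probes), -0.37 for Schwann cells and nerve and -0.14 for fat. In these lists the 2-fold mark was passed by Retnla alone, a macrophage-secreted protein (-0.07 and -2.09). Lists not expected in skin differed too. Olfactory and vomeronasal receptor genes were lower in replicate 2 in 48 of 64 (median -0.14, of the other sign with no filter on dim probes). Testis and oocyte genes were lower in 4 of 4 (-0.33), while liver genes were higher in 3 of 4 (0.25) and cartilage and bone genes in 4 of 6 (0.22). The cartilage and bone median was -0.09 with a more lenient background flag. Over the alternatives the testis median shrank to as little as -0.04 and the liver median to 0.12.

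Epidermal and follicle lists differed among themselves in direction. Small proline-rich proteins were lower in replicate 2 in 9 of 11 (median -0.26), keratin-associated proteins in 25 of 42 (-0.06) and sebaceous gland genes in 10 of 15 (-0.08). Cell cycle genes were higher in replicate 2 in 31 of 34 (median 0.14), hair matrix regulators in 21 of 26 (0.18) and spinous genes in 14 of 16 (0.13, and 0.09 with normexp background correction or the lowest probe). Hair shaft keratins had a median of 0.01, which changed sign with another background correction, and basal genes one of 0.05 (0.02 with that correction or the lowest probe). The dermal, muscle and macrophage lists thus differed between the animals together, and their part in the level of any other gene was not tested. How much of each layer a sample held, and litter, cannot be told apart from the animal.

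**Figure D5:**
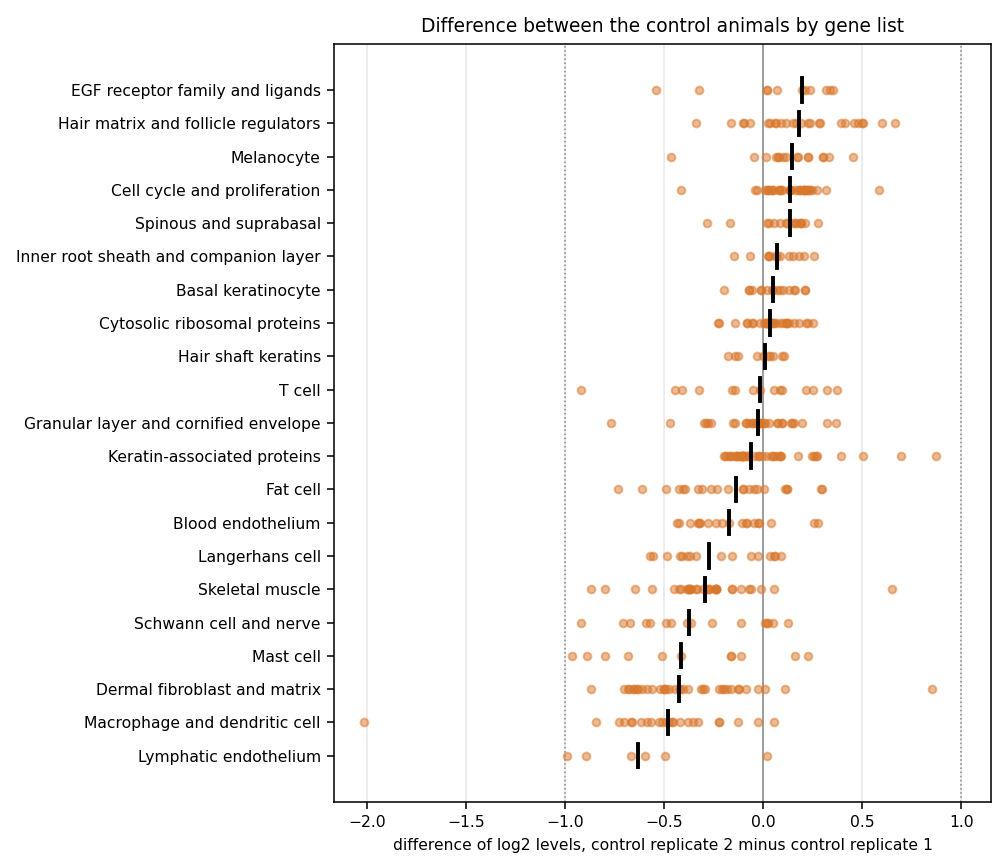
Difference of log2 levels, control replicate 2 minus control replicate 1 (x axis), of each listed gene above background for 21 gene lists (y axis), with a black bar at the list's median and dotted lines at 2-fold. Lymphatic, macrophage and fibroblast lists lie to the left of 0 and cell cycle and hair matrix lists to the right.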

How the data were processed

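Scanner files of 2 control arrays were used. Per the file headers, the deposited intensity per spot is the authors' background-subtracted, detrended processed signal from Agilent Feature Extraction 10.7.3.1 (10.5 per the submitters' processing notes), on design 014868 with probe positions in mm9. Control spots and spots flagged as outliers (51 and 58) were left out, spots of 1 probe were averaged, and the log2 signal was set against the array's 75th percentile. A probe counted as above background if at least a share of 0.5 of its spots carried the flag, and a gene was shown by its highest such probe. Leaving out flagged spots removed the highest probe of 12 genes, of which 6 are shown by a lower probe and 6 have no other probe above background. The level of the 6 genes shown by a lower probe may thus be understated.

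The deposited series table holds log2 values. It was found to be centred per probe by the authors and so holds no levels, and its difference between the control arrays equalled that of the scanner values (r and slope of 1). Names came from accessions for 26690 probes, current symbols for 5189 and synonyms for 952 (RefSeq, GRCm38.p6), and 8343 kept the file's name. Python 3.11.15, pandas 2.3.3 and, for alternatives, limma 3.58.1 in R 4.3.3 were used.

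Members and the 56 gene lists were chosen with earlier results of these data known. Named are the 10 largest differences each way, the 5 genes whose probes disagree most and all EGF receptor and ADAM members. Others were taken from the 30 highest named genes. From the lists described, names came from the highest 3, the lowest and up to 4 members not above background. Not all of these are named in the text. Other names were chosen after their values were seen. Alternatives were another background correction, scaling, flag or probe rule, no filter and leaving out each array.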

Additional observations from a re-analysis of the deposited data

How the results depend on the processing

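No paired analysis was possible because the values come from 1 group of 2 animals and from no test. The number of genes at least 2-fold apart between the animals moved most, from 121 to 51 with normexp background, 490 with the more lenient background flag and 972 with no filter on dim probes. The median span of a gene's probes was 1.89 with normexp, 2.27 with quantile normalization, as in the reported setting to 2 decimals, 2.73 with the lenient flag and 2.99 with no filter, and 2.30 to 2.32 with 1 array left out. The share of the summed signal held by the 100 highest genes was 29.1% with the median over a gene's probes and 31.3% with its lowest probe above background, an alternative chosen after seeing the data, and 26.1% to 26.8% with 1 array left out. Of the 100 highest genes, 77 stayed with the median and 69 with the lowest probe. Genes above background numbered 18530 with the lenient flag. With the lowest probe the difference between the animals changed sign for Plcxd2 (-0.80) and Wdfy1 (0.23). The cause was not tested. Among the lists' median percentiles, no filter moved that of lymphatic endothelium from 18.5 to 55.4, as dim genes then enter the ranking. The lenient flag moved it to 32.6 and that of T cells from 19.7 to 33.5, and the lowest probe moved the olfactory list from 11.4 to 19.2. The fibroblast, macrophage, muscle and lymphatic medians kept their sign under all 9 alternatives that give a difference. Over all genes the animals differed by 0.02 at the median, and by 0.12 with no filter. A difference could not be computed with 1 array, nor a count above background with no filter. Dim genes are the least certain, and 2 arrays limit the precision of every level.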
